A study of Homo sapiens with 12 samples.

Results

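The difference between 2 lymphoma cell lines in their response to chidamide was measured for every gene, as the change under the drug in libraries labelled JeKo-1 minus the change in Granta-519. All 12 polyA RNA-seq libraries of the series entered, with 3 in each of 4 groups: cells labelled JeKo-1 given vehicle, the same line given 4 µM chidamide, Granta-519 given vehicle, and Granta-519 given 4 µM chidamide, each for 12 h. Both names belong to long-established cultures of mantle cell lymphoma, a B-cell tumour usually marked by cyclin D1. Each line stands for itself alone, so the values compare these cultures and not kinds of lymphoma. The title of the series names Myc, and the pair of lines lets the response of MYC and of all other genes be set side by side. The labels number the replicates but do not say whether they were separate cultures, so the p-values measure the spread between libraries, which may be technical.

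Histone deacetylases (HDACs) take acetyl groups off histone tails and other proteins, and chidamide inhibits HDAC1, HDAC2, HDAC3 and HDAC10. With the enzymes blocked, acetylation builds up, many silent or weakly expressed genes gain transcripts, and genes with strong promoters or enhancers often lose them. In B-cell tumours, HDAC inhibitors are known to act on cell-cycle inhibitors such as CDKN1A, on MYC and on antigen presentation genes.

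B-cell transcripts were abundant in both lines. PAX5, which holds B-cell identity, stood at 547 ± 22.7 CPM (counts scaled to library size, mean ± SD, n = 3) in vehicle under the JeKo-1 label and at 693 ± 26.1 CPM in Granta-519. Mantle cell markers differed. CCND1, the cyclin D1 gene, had 5 counts in the 3 vehicle libraries labelled JeKo-1 and 97605 in those of Granta-519, and SOX11, a transcription factor of mantle cell lymphoma, had 0 counts in all 6 libraries labelled JeKo-1 and 7225 in Granta-519 vehicle. These values go against the label, so the line is called by its label throughout. In vehicle, 37 genes stood at 50 CPM or more in Granta-519 with no count under the JeKo-1 label, and together they had 239809 counts in Granta-519 vehicle and 105 in the chidamide libraries labelled JeKo-1. Library totals ran from 12873642 to 16592694 counts, and the 3 vehicle libraries labelled JeKo-1 had the lowest scaling factors, 0.928 to 0.938 against 1.02 to 1.03 in the other 9.

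The lines responded in the same direction at most genes but differed in the size of the response at many. Of 15087 genes tested, 5956 (39.5%) differed in response at an adjusted p under 0.05 (edgeR quasi-likelihood test, Benjamini-Hochberg). The change was more positive under the JeKo-1 label for 3015 genes (20.0%) and in Granta-519 for 2941 (19.5%). Most differences were small, with 3306 of the 5956 (55.5%) under 1.5-fold. A difference tested to be beyond 2-fold was found for 271 genes more positive under the JeKo-1 label (1.80%) and 202 more positive in Granta-519 (1.34%). The balance turned to 80 and 127 when 10 or more counts were required in every vehicle library. Across genes, which are not independent replicates, the 2 responses had Pearson r = 0.569 and Spearman rho = 0.662. For the 10888 genes with 10 or more counts in every vehicle library these were 0.680 and 0.689.

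The balance between the directions depended on scaling. With library totals alone the median difference over all genes moved by 0.14 on the log2 scale, and 70.0% of the called genes were more positive under the JeKo-1 label, against 50.6% in the main fit. The share was 72.9% with no count filter (shift 0.16), 63.4% with limma on the deposited length-scaled values (shift 0.14) and 57.8% with upper-quartile scaling. Small differences are therefore relative to the scaling chosen, and a gene's fall in a bulk library cannot be told apart from fewer cells that carry it.

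**Figure D1:**
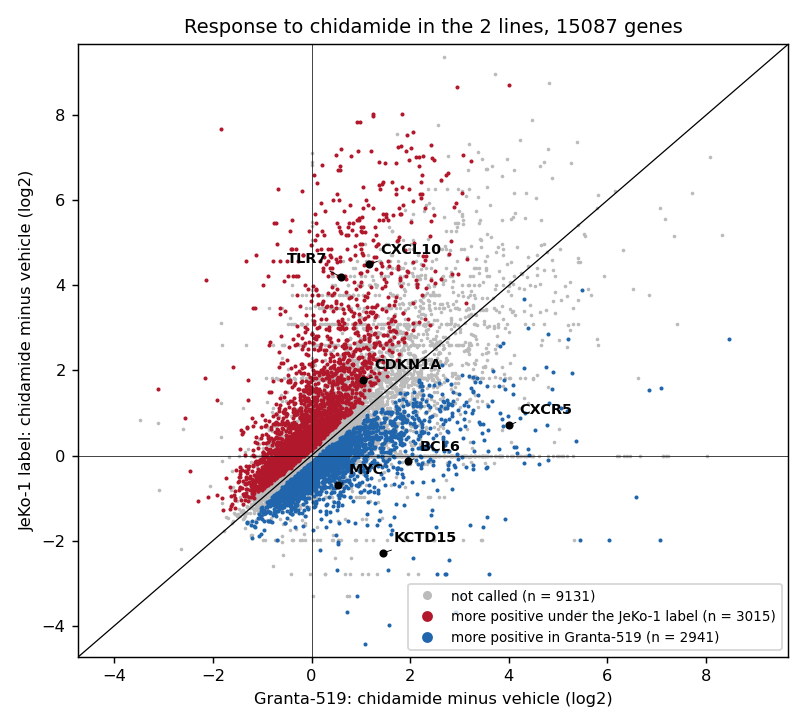
Change under chidamide for each of 15087 tested genes (log2, chidamide minus vehicle), Granta-519 on the horizontal axis and the line labelled JeKo-1 on the vertical axis. Red points were called more positive under the JeKo-1 label (3015), blue points more positive in Granta-519 (2941), grey points were not called, and the diagonal marks equal responses; rows of grey points are genes with few counts.

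The called genes were sorted by what each line did on its own. The background is that chidamide raised 35.3% and lowered 31.1% of tested genes under the JeKo-1 label, and raised 39.6% and lowered 31.3% in Granta-519. Among the 3015 genes more positive under the JeKo-1 label, 869 rose in both lines and more under that label, 729 rose there with no call in Granta-519, and 534 fell in both but further in Granta-519. Among the 2941 more positive in Granta-519, 786 fell in both lines and further under the JeKo-1 label, 579 rose in both, and 557 fell under the JeKo-1 label with no call in Granta-519. Opposite calls in the lines were made for 779 genes (5.16%), of which 329 rose under the JeKo-1 label and fell in Granta-519 and 450 did the reverse.

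Many genes responded alike in both lines. Of the 10888 genes with at least 10 counts in every vehicle library, 6379 (58.6%) had a 95% interval of the difference inside 1.5-fold in either direction. Of these, 1159 rose and 2751 fell in both lines. A small difference can be both called and alike by this measure, and 2003 of all tested genes were. SGK1, a stress-regulated kinase, rose by 2.25 ± 0.08 (log2, SE) under the JeKo-1 label and by 2.37 ± 0.12 in Granta-519, a difference of -0.12 with a 95% interval from -0.42 to 0.19. It was chosen as an example after its values were seen. DNLZ, a mitochondrial chaperone cofactor, fell by 1.78 in each line, with an interval of the difference from -0.28 to 0.28.

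Among genes with at least 10 counts in every vehicle library, the largest differences toward the JeKo-1 label were in TLR7, FCMR, CXCL10, SAMD9L, NOTCH4 and FCRL5. TLR7, a receptor for single-stranded RNA, read 0.751, 0.899 and 1.08 CPM in vehicle and 20.3, 15.3 and 13.8 CPM in chidamide under the JeKo-1 label, and 46.1, 43.6 and 46.1 then 69.5, 63.9 and 72.9 CPM in Granta-519. The treated and untreated libraries did not overlap in either line, and every Granta-519 library lay above every library labelled JeKo-1. The log2 change was 4.19 ± 0.19 against 0.60 ± 0.08, a difference of 3.58 ± 0.22 (edgeR adjusted p = 1.12e-19). FCMR, the Fc receptor for IgM, read 2.53, 2.47 and 2.15 then 18.2, 19.8 and 21.6 CPM under the JeKo-1 label, and 76.5, 80.6 and 71.4 then fell to 60.0, 64.2 and 62.8 CPM in Granta-519. Here the lines moved in opposite directions, by 3.05 ± 0.13 and -0.29 ± 0.06, a difference of 3.34 ± 0.15 (edgeR adjusted p = 1.28e-25).

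CXCL10, a chemokine induced by interferon, was the only one of the 6 to end above Granta-519. It rose from 4.65, 4.27 and 3.39 CPM to 101, 91.2 and 87.6 CPM under the JeKo-1 label, and from 20.8, 26.3 and 26.0 to 51.9, 56.0 and 56.2 CPM in Granta-519. The difference was 3.33 ± 0.14 (edgeR adjusted p = 1.72e-26). SAMD9L, an interferon-induced antiviral gene, rose by 2.91 ± 0.23 against -0.13 ± 0.09, and NOTCH4, a Notch receptor, by 2.64 ± 0.19 against 0.03 ± 0.11, with no call in Granta-519 for either. FCRL5, a B-cell surface receptor, rose by 3.72 ± 0.10 under the JeKo-1 label and by 1.13 ± 0.04 in Granta-519.

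Large differences toward Granta-519 were in KCTD15, NUGGC, CXCR5 and C10orf10. KCTD15, a BTB-domain protein, fell from 71.7, 72.3 and 70.1 CPM to 14.2, 14.8 and 14.8 CPM under the JeKo-1 label, and rose from 1.17, 0.949 and 1.47 to 3.35, 3.18 and 3.25 CPM in Granta-519. The treated libraries lay apart from vehicle in both lines, on opposite sides. The difference was -3.74 ± 0.23 (edgeR adjusted p = 3.6e-20). CXCR5, the chemokine receptor that guides B cells to follicles, rose in both lines, from 103, 113 and 101 to 174, 175 and 171 CPM under the JeKo-1 label and from 2.34, 1.33 and 2.06 to 29.4, 33.6 and 28.7 CPM in Granta-519. Its difference was -3.28 ± 0.14 (edgeR adjusted p = 6.48e-26).

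NUGGC, a GTPase of germinal-centre B cells, fell by 0.81 ± 0.09 under the JeKo-1 label and rose by 2.55 ± 0.17 in Granta-519. C10orf10 was the one of these 4 that did not start lower in Granta-519: it fell by 1.52 ± 0.36 under the JeKo-1 label and rose by 1.37 ± 0.21.

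**Figure D2:**
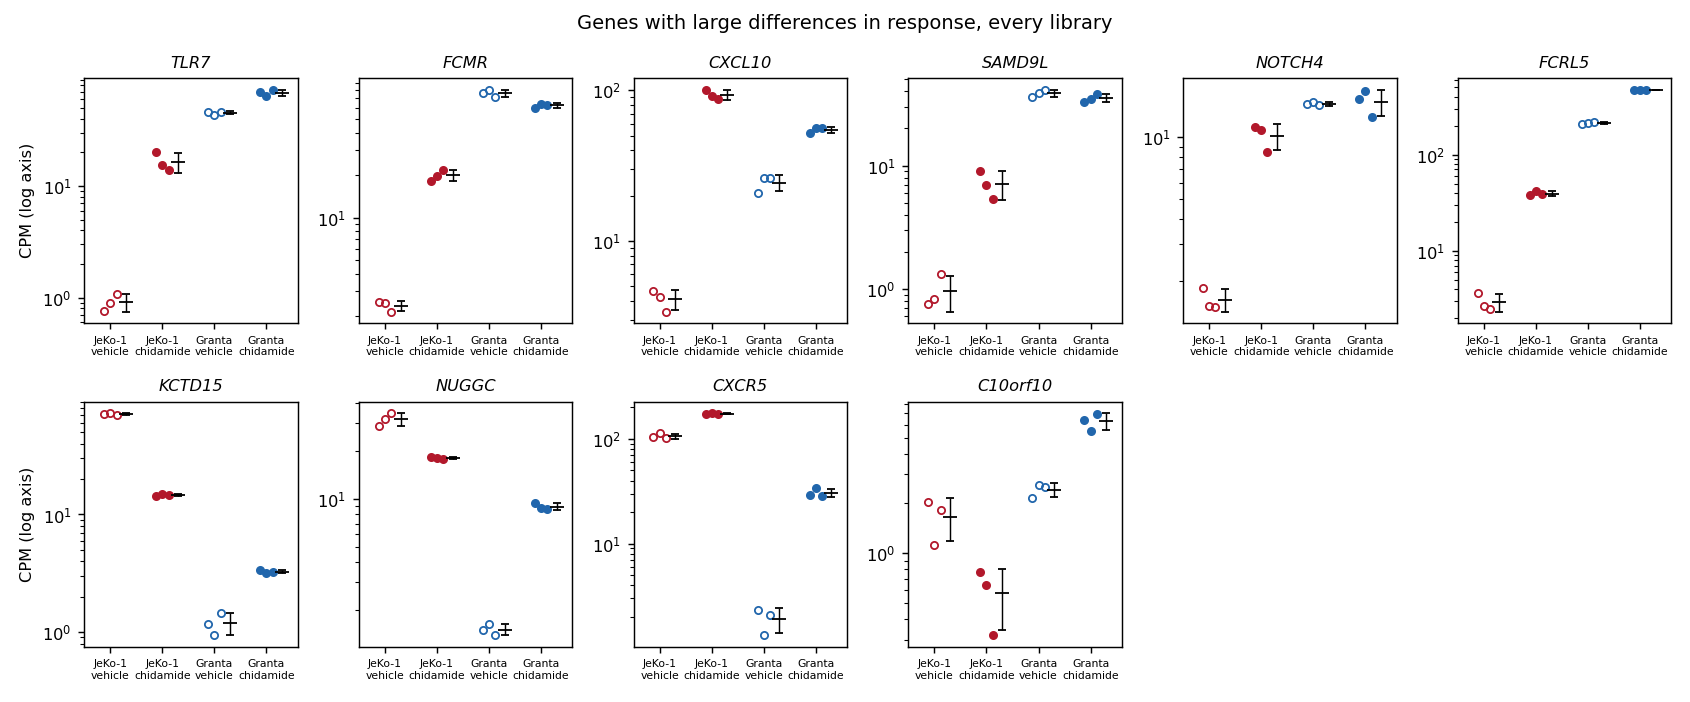
CPM in each library (log axis, a separate scale for each gene) for the 6 genes with the largest difference toward the JeKo-1 label (upper row) and 4 with large differences toward Granta-519 (lower row), among genes with 10 or more counts in every vehicle library. Open circles are vehicle, filled circles chidamide, and bars give the mean and SD of 3 libraries; CXCL10 is the gene of the upper row whose treated libraries labelled JeKo-1 (87.6 to 101 CPM) passed those of Granta-519 (51.9 to 56.2 CPM).

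Genes with few vehicle counts gave larger fitted differences that depend on the prior count and are no bounds. RXFP1, the relaxin receptor, had 0 counts in vehicle and 80 in chidamide under the JeKo-1 label, which is at least 22.9-fold higher against a floor of 3 counts over the group, and it had 1 and 0 counts in Granta-519. ITGBL1 went from 0 to 90 counts there (at least 25.7-fold higher), with 15 and 27 in Granta-519. MOB3B also went from 0 to 90, and stood at 562 and 1049 counts in Granta-519, while FAM198B went from 0 to 30 and stood at 61 and 36. In the other direction, TMEM59L went from 0 to 49 counts in Granta-519 (at least 17.3-fold higher) with 1 and 0 under the JeKo-1 label, and GNAO1, a G-protein subunit of neurons, went from 10 to 419 with 4 and 0. PDZD4 went from 3 to 304 counts in Granta-519 and RASD2 from 1 to 85. The calls of RXFP1, TMEM59L, GNAO1 and RASD2 were lost when 1 library was left out, respectively Granta-519 vehicle replicate 2, and JeKo-1 label vehicle replicate 1, replicate 2 and replicate 2, each with an edgeR adjusted p of 1. RASD2 was also lost without any of 5 other libraries, at adjusted p from 0.05 to 0.0539.

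Some genes moved in opposite directions with ample counts. SECISBP2L, a selenoprotein synthesis factor, rose from 20.3, 23.5 and 22.0 to 40.2, 37.4 and 36.0 CPM under the JeKo-1 label and fell from 28.6, 29.9 and 30.2 to 13.1, 13.4 and 13.6 CPM in Granta-519. No library of one treatment reached the range of the other in either line. The difference was 1.93 ± 0.12 (edgeR adjusted p = 1.04e-19). KIF26B, a kinesin, rose by 0.92 ± 0.11 and fell by 0.77 ± 0.08. HIC1, a transcriptional repressor, did the reverse, with -1.29 ± 0.19 under the JeKo-1 label and 1.40 ± 0.22 in Granta-519, as did CECR6, with -0.88 ± 0.32 and 1.36 ± 0.17.

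MYC was among the genes that moved in opposite directions. It fell from 325, 339 and 323 CPM to 196, 206 and 206 CPM under the JeKo-1 label and rose from 83.9, 85.1 and 86.0 to 122, 128 and 121 CPM in Granta-519. All treated libraries labelled JeKo-1 remained above all Granta-519 libraries. The changes were -0.70 ± 0.04 and 0.54 ± 0.05, a difference of -1.24 ± 0.06 (edgeR adjusted p = 2.56e-23). MXD1, which competes with MYC for their partner MAX, moved the other way, with 0.80 ± 0.18 under the JeKo-1 label and -0.86 ± 0.16 in Granta-519.

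Of 59 tested genes of a list of MYC targets, 45 were more positive in Granta-519 and 1, HK2, a hexokinase, was more positive under the JeKo-1 label. Over all tested genes these shares were 19.5% and 20.0%. For the 1826 genes above 100 CPM in vehicle replicate 1 of both lines they were 41.8% and 12.7%, with responses from the other libraries. The list was not matched to other genes by level. The median difference of the list was -0.29, beside 0.02 over all genes tested. With library totals alone the counts were 29 and 3 and the median -0.16. Most of the list fell in both lines, with 55 of 59 down under the JeKo-1 label and 41 in Granta-519. TERT, the telomerase subunit, fell by 0.86 under the JeKo-1 label and rose by 0.59 in Granta-519, a difference of -1.44 ± 0.10. NCL, the nucleolar protein nucleolin, fell by 0.70 under the JeKo-1 label, with 0.06 and no call in Granta-519. PRMT1, an arginine methyltransferase, fell by 0.67 and 0.66.

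Genes of germinal-centre B cells, the stage at which antibodies are matured, were mostly more positive in Granta-519. This held for 12 of 19 tested, with 1 in the other direction, beside 19.5% and 20.0% of all tested genes. The median of the list was -0.96. They also started higher under the JeKo-1 label, by a median of 1.79 on the log2 scale. Of all 1380 genes that started 1 to 3 log2 units higher there in vehicle replicate 1, 38.9% were called toward Granta-519 and 8.41% toward the JeKo-1 label. BCL6, the master repressor of that stage, read 246, 227 and 229 then 213, 210 and 214 CPM under the JeKo-1 label and 16.9, 15.7 and 14.9 then 60.3, 62.9 and 62.1 CPM in Granta-519. It fell by 0.14 ± 0.05 in the first line and rose by 1.97 ± 0.07 in the second, a difference of -2.10 ± 0.08 (edgeR adjusted p = 2.4e-28). MME, the surface peptidase CD10, fell by 0.43 and rose by 2.92. EZH2, a histone methyltransferase, was the single gene in the other direction, with rises of 0.63 and 0.41.

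B-cell receptor signalling genes followed the same side, with 18 of 28 more positive in Granta-519 and 5 under the JeKo-1 label (median -0.30). Over all tested genes these shares were 19.5% and 20.0%. PLCG2, a phospholipase, rose by 0.11 and 1.07. PTPN6, the inhibitory phosphatase SHP-1, was the largest in the other direction, with 0.42 and -0.67. Among B-cell identity transcription factors, 11 of 21 were more positive in Granta-519 and 2 under the JeKo-1 label, with a median of -0.14 that was 0.00 with library totals. FOXO1 rose by 0.56 and 2.78, a difference of -2.21 ± 0.12, while PAX5 fell by 0.55 and 0.53.

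Interferon-stimulated genes leaned toward the JeKo-1 label. Of 44 tested, 22 were more positive there and 4 in Granta-519, beside 20.0% and 19.5% of all tested genes. The median difference of the list was 0.78 and its median starting gap -2.62. By line, 34 rose and 1 fell under the JeKo-1 label, and 30 rose and 9 fell in Granta-519. Besides CXCL10 and SAMD9L, PARP14, an ADP-ribosyltransferase, rose by 4.56 and 1.22. OAS1 and OAS3, which sense double-stranded RNA, went the other way, OAS1 by 0.74 and 3.47 and OAS3 by 1.73 and 3.42. MX1, an antiviral GTPase, had no count in any library labelled JeKo-1 and rose by 2.68 in Granta-519.

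The interferon-stimulated response element is a promoter motif bound by STAT and interferon regulatory factor complexes. Its core was searched as TTTC, any 2 bases and TTTC on both strands (on the other, GAAA, any 2 bases and GAAA). In the 250 bases before the gene start it was found in 20 of 32 of these genes with a promoter in RefSeq (GRCh38.p14), beside 2.65% of the 11582 tested genes with one. A promoter was found for 72.7% of the list, too few for a check over it. Of the 20, 10 were called more positive under the JeKo-1 label and 2, OAS3 and ISG20, in Granta-519. Of the 12 with a promoter and no match, 6 were called toward the JeKo-1 label, the same share. The 4 sequences below show that genes with the same core had different line-by-drug values: CXCL10 (chr4:76023498-76023747, minus strand) and PARP14 (chr3:122680589-122680838, plus) toward the JeKo-1 label, PARP12 (chr7:140062952-140063201, minus) alike in the 2 lines with rises of 1.00 and 1.02, and OAS3 (chr12:112938224-112938473, plus) toward Granta-519. Capitals mark the matches, and a match is a description of the letters alone.
CXCL10: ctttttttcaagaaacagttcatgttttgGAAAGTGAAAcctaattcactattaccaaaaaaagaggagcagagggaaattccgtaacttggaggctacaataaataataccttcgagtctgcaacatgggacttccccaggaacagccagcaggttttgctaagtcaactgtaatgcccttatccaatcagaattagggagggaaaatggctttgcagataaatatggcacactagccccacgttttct
PARP14: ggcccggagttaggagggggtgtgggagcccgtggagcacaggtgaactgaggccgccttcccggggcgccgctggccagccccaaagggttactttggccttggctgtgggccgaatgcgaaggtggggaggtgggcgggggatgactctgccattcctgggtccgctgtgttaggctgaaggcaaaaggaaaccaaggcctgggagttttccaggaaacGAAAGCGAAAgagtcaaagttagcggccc
PARP12: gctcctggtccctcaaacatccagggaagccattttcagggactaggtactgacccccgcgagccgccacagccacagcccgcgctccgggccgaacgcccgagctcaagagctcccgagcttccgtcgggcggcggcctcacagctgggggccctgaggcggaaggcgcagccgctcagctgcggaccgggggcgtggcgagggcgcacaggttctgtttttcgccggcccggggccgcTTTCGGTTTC
OAS3: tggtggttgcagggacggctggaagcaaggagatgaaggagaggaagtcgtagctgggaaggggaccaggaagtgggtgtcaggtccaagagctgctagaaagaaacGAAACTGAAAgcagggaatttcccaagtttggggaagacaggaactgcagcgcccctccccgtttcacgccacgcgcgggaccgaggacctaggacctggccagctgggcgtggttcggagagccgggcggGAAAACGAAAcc

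Genes of rapid signalling leaned to the JeKo-1 label. Of 27 NF-kB targets, 18 were more positive there and 6 in Granta-519 (median 0.43), beside 20.0% and 19.5% of all tested genes. TNF, an inflammatory cytokine, rose by 2.12 and 0.46, and CD83, a marker of activated B cells, by 2.19 and 1.16. IL10, a suppressive cytokine, had the largest value in the other direction, with -0.71 and 0.95. Of 27 immediate early genes, 15 were more positive under the JeKo-1 label and 1, FOSL2, in Granta-519 (median 0.51, and median starting gap -1.70). Of all genes with a gap of -3 to -1, 39.8% and 8% were called. IER3, a stress-response gene on both lists, rose by 3.53 and 1.58.

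Survival and cell-cycle genes did not all lean to 1 side. Of 11 proapoptotic BCL2 family genes, 0 were more positive under the JeKo-1 label and 3 in Granta-519 (median -0.095). For 23 cyclins and their kinases these counts were 10 and 4 (median -0.03), and for 8 CDK inhibitors 4 and 0 (median 0.79). The shares over all tested genes were 20.0% and 19.5%. All 5 tested antiapoptotic BCL2 family genes were more positive under the JeKo-1 label (median 0.73). The call of MCL1 was lost without JeKo-1 label vehicle replicate 2 (edgeR adjusted p = 0.143) and without 7 other libraries. BCL2 read 22.8, 23.9 and 23.8 then 42.8, 40.5 and 42.8 CPM under the JeKo-1 label and 584, 599 and 602 then 699, 714 and 774 CPM in Granta-519. The log2 difference was 0.55 ± 0.07 (edgeR adjusted p = 1.47e-08), while the gain in CPM was larger in Granta-519. CDKN1A, which stops cyclin-dependent kinases, rose by 1.77 ± 0.06 and 1.05 ± 0.05, a difference of 0.72 ± 0.07 (edgeR adjusted p = 8.46e-12).

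Of 26 p53 targets, 13 were more positive under the JeKo-1 label and 4 in Granta-519 (median 0.35). The shares over all tested genes were 20.0% and 19.5%. Among genes with 10 or more counts in every vehicle library, 47.5% were called in either direction. Near that share were DNA replication (53.3% called), oxidative phosphorylation (47.6%) and MHC class II genes (55.6%). Of the lists described before, interferon-stimulated genes had 59.1% called, immediate early genes 59.3%, cyclins and their kinases 60.9% and B-cell identity factors 61.9%. Germinal-centre genes had 68.4%, MYC targets 78%, B-cell receptor signalling genes 82.1% and NF-kB targets 88.9%. In DNA replication 19 of 45 were more positive in Granta-519 and 5 under the JeKo-1 label, but with library totals the counts were 4 and 12, so the direction of that list is not fixed by these data. Oxidative phosphorylation genes had 19 of 42 toward the JeKo-1 label and 1 toward Granta-519 (median 0.16), and 31 and 0 with library totals (median 0.30), while 28 fell under the JeKo-1 label and 35 in Granta-519. MHC class II genes had 8 of 18 toward Granta-519 and 2 the other way (median -0.16, and -0.02 with library totals). Ribosomal protein genes were mostly alike, with 72 of 74 inside 1.5-fold; 10 were called toward Granta-519 and 1 the other way, against 2 and 23 with library totals.

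The enzymes chidamide acts on differed little. HDAC1, HDAC2 and HDAC3 had differences of 0.02 ± 0.06, 0.06 ± 0.06 and 0.05 ± 0.07 and no call. All 3 were called with library totals (edgeR adjusted p = 0.0241, 0.0063 and 0.0365), and also with no count filter and with limma on the deposited length-scaled values. HDAC10 fell by 1.1 ± 0.08 under the JeKo-1 label and by 0.72 ± 0.08 in Granta-519, a difference of -0.37 ± 0.12 (edgeR adjusted p = 0.0075). That call was lost with library totals (edgeR adjusted p = 0.0951), with no count filter (0.152) and without JeKo-1 label chidamide replicate 1 (0.0606). With limma on the deposited length-scaled values it was lost too (limma adjusted p = 0.162). Among the other deacetylases, HDAC9 rose by 2.55 under the JeKo-1 label with 0.70 in Granta-519, and HDAC7 fell by 0.49 and rose by 0.78.

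**Figure D3:**
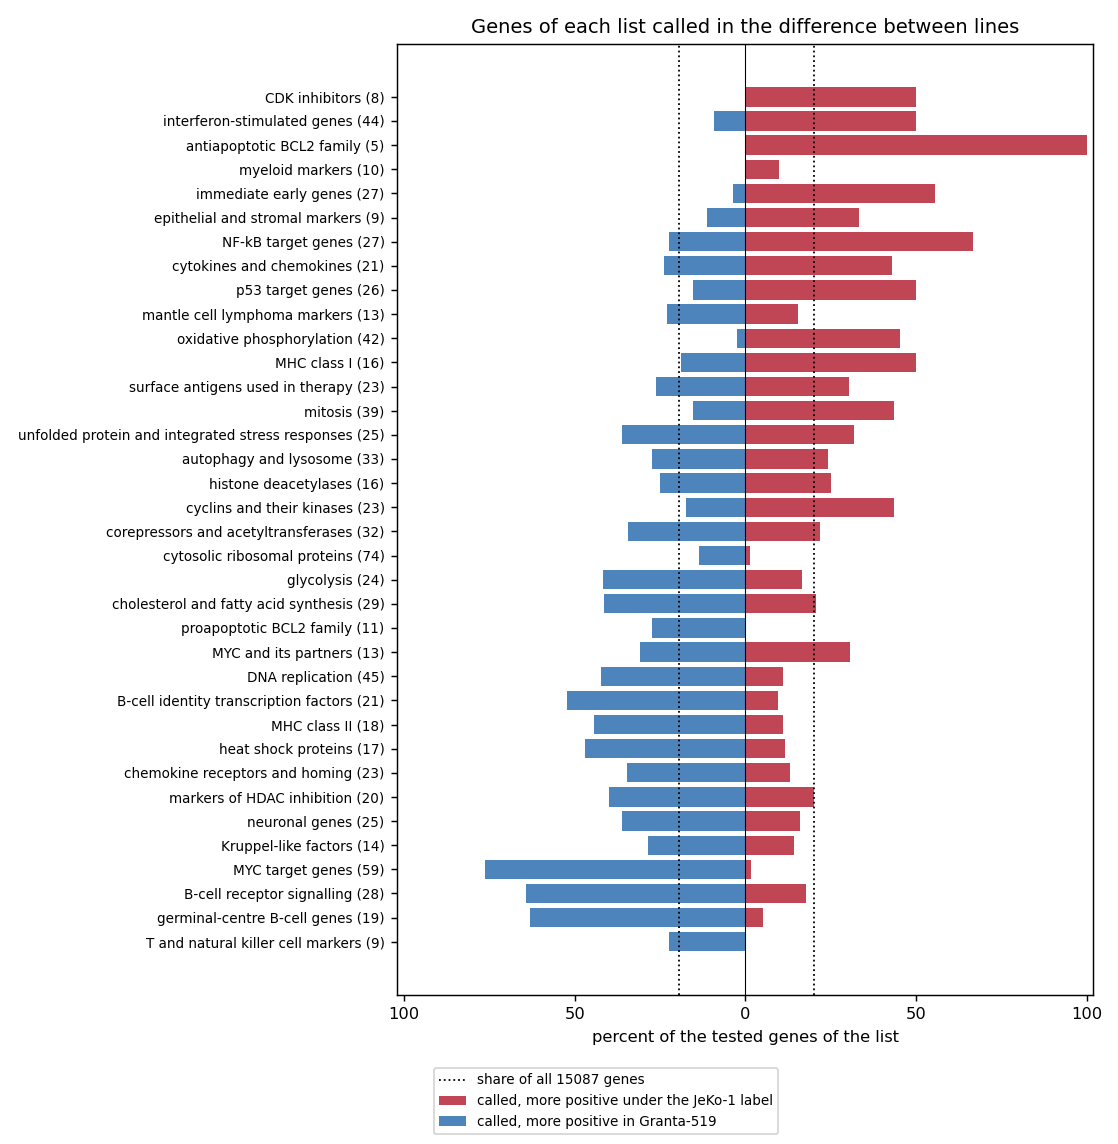
Percent of the tested genes of each list (number in brackets, lists with 5 or more) called more positive under the JeKo-1 label (red, to the right) or in Granta-519 (blue, to the left), ordered by the list's median difference. Dotted lines mark the shares over all tested genes, 20.0% and 19.5%; MYC targets reach farthest left with 45 of 59, and the antiapoptotic BCL2 family farthest right with 5 of 5.

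Markers of other cell types were read in the same libraries. The summed level of 21 myeloid markers was 5.80 to 9.29 CPM in vehicle and 48.3 to 49.6 CPM in chidamide under the JeKo-1 label, and 56.6 to 59.4 then 184 to 195 CPM in Granta-519. The 21 T and natural killer cell markers summed to 22.8 to 27.0 then 53.6 to 59.0 CPM, and to 33.8 to 35.4 then 84.8 to 96.0 CPM. LCK, a kinase that B-cell tumours can also express, made up most of that sum, with 19.8 then 46.9 CPM and 22.5 then 56.0 CPM. Among genes that define T cells, CD3D, CD3G and CD2 had 0 to 12 counts in any group. CD3E had 4 then 68 counts under the JeKo-1 label and 0 then 13 in Granta-519. CD247 had 14 then 15 counts under the JeKo-1 label and 114 then 553 in Granta-519, and CD5 had 6 then 5 and 49 then 295. Of the 21 T and natural killer cell markers 8, 6, 9 and 5 had no count in the 4 groups, in the same order, and of the myeloid markers 10, 6, 4 and 6. The 21 epithelial and stromal markers summed to 55.3 to 57.0 then 73.6 to 78.7 CPM under the JeKo-1 label and fell from 592 to 618 CPM to 540 to 558 CPM in Granta-519, where VIM alone, which lymphoid cells also express, held 507 then 406 CPM. The 15 erythroid and megakaryocytic markers summed to at most 7.38 CPM in any library. The myeloid and T-cell sums were higher with the drug in both lines, and the part of these markers in the gene differences was not tested.

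The difference in response was then set against the starting level. So that noise in a vehicle library could not enter both sides, the starting gap (JeKo-1 label minus Granta-519, log2 CPM) came from vehicle replicate 1 and the responses from chidamide replicates 1 to 3 against vehicle replicates 2 and 3. For the 11328 genes with 10 or more counts in both starting libraries, the difference in response had Pearson r = -0.456 and Spearman rho = -0.348 with the gap across genes, and a slope of -0.23 per log2 unit. Genes that started lower in a line tended to have the more positive response there.

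Among 224 genes with a starting gap of -3 or less, which stood far lower under the JeKo-1 label, the median difference in response was 1.12, and 65.2% were called toward that label with 8.48% toward Granta-519. Their median response was 1.33 under the JeKo-1 label and 0.32 in Granta-519. At the other end, among 109 genes with a gap of 3 or more, the median difference was -1.40, 80.7% were called toward Granta-519 and 0 of 109 toward the JeKo-1 label. There the median response was 0.19 under the JeKo-1 label and 1.52 in Granta-519. Among 8440 genes with a gap between -1 and 1 the median was 0.00, with 18.4% and 21.8% called.

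In both outer classes the gap narrowed for most genes. In the lowest class the median gap went from -4.03 in vehicle replicates 2 and 3 to -3.05 in chidamide and was smaller in 192 of 224 genes, and in the highest class it went from 3.68 to 2.68 and was smaller in 100 of 109. No gene of either outer class changed the sign of its gap, while 36 of 1175, 1917 of 8440 and 28 of 1380 did in the classes between. Among the 8440 genes with a gap between -1 and 1 it was smaller after chidamide in 48.8%. TLR7 and FCMR led the genes whose gap narrowed from below, and KCTD15 and CXCR5 were among those from above. Exceptions were IL3RA, a cytokine receptor subunit, and FSCN1, an actin bundler: both were low under the JeKo-1 label, rose by 2.24 and 1.62 in Granta-519, and had responses of 0.52 and 0.08 under that label.

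**Figure D4:**
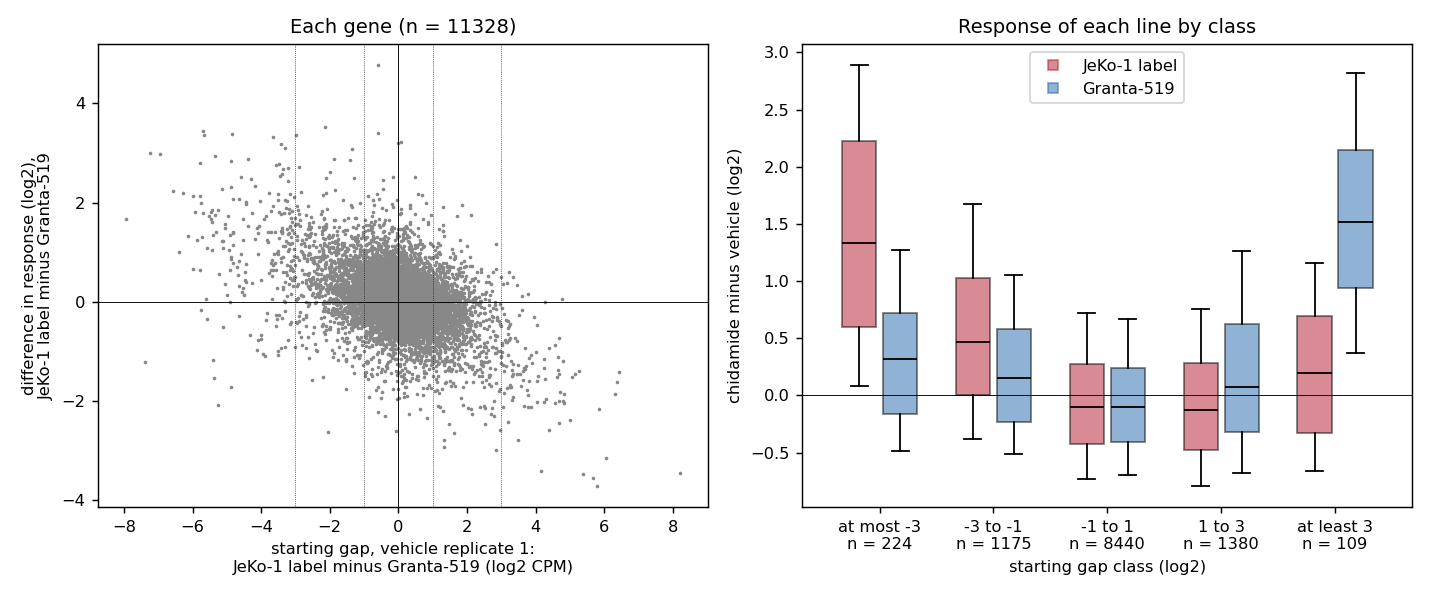
Left, difference in response (log2) against the starting gap in vehicle replicate 1 (log2 CPM) for 11328 genes, with dotted lines at the class limits. Right, response of each line in the 5 gap classes, with boxes for the quartiles, a line for the median and whiskers from the 10th to the 90th percentile of genes; the line that started lower has the higher median response in both outer classes (1.33 against 0.32, and 1.52 against 0.19).

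The response was also related to the starting level within each line. Under the JeKo-1 label the median response was 0.50 for genes at 1 to 10 CPM in its own starting library, -0.07 at 10 to 100 CPM and -0.28 above 100 CPM, and in Granta-519 it was 0.53, -0.09 and -0.14. CPM are not divided by gene length, so these classes mix abundance and length. Holding a line's own level at 1 to 10 CPM, the response under the JeKo-1 label was 0.45 where Granta-519 also stood at 1 to 10 CPM (1618 genes) and 0.57 where it stood at 10 to 100 CPM (613 genes). It was 1.57 where Granta-519 exceeded 100 CPM, from 18 genes only. The matching medians for Granta-519 were 0.31, 0.46 (438 genes) and 1.64 (13 genes only).

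That rise with the other line's level was not seen in the higher classes. With its own level at 10 to 100 CPM, the median under the JeKo-1 label was 0.19, -0.09 and 0.00 as Granta-519 went from the low to the high class, and that of Granta-519 was 0.17, -0.13 and -0.12 as the JeKo-1 label did. Above 100 CPM the medians were -0.23 (13 genes only), -0.29 and -0.27 under the JeKo-1 label, and 0.20 (18 genes only), -0.06 and -0.15 in Granta-519.

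In a least-squares fit on both levels, the response under the JeKo-1 label changed by -0.23 per log2 unit of its own level and by 0.10 per unit of the Granta-519 level. The response of Granta-519 changed by -0.11 per unit of its own level and by 0.005 per unit of the other. The slope on the other line's level was thus near 0 in Granta-519, and the 2 slopes were not tested against each other. The responses had the same sign for 73.7% to 78.3% of genes in the 3 classes of mean starting level, and the relation with the gap was negative in each, with Pearson r of -0.423 under 10 CPM, -0.500 at 10 to 100 CPM and -0.294 above 100 CPM.

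**Figure D5:**
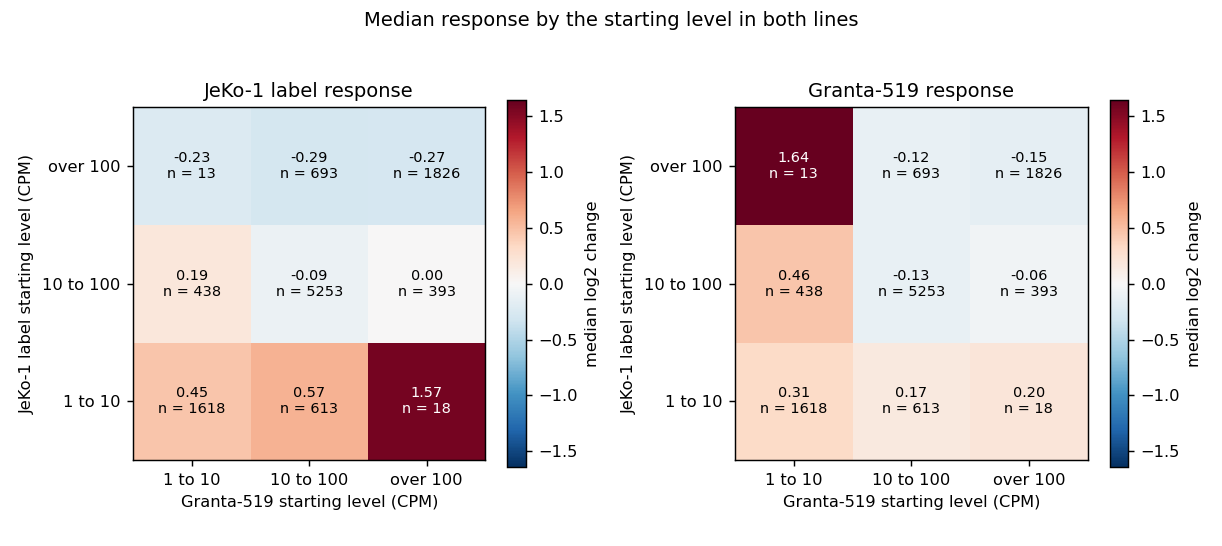
Median response (log2, colour and upper number) of the line labelled JeKo-1 (left) and Granta-519 (right) for genes grouped by the starting CPM in each line, with the number of genes below. The highest medians, 1.57 and 1.64, are in the corners where a line was at 1 to 10 CPM and the other above 100 CPM, with 18 and 13 genes.

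The direction of a difference also depended on the scale. A more positive log2 change can go with a less positive change in CPM, and this was so for 738 of the 5956 called genes (12.4%). That count takes rises and falls together, whichever line started lower. Among the genes beyond 2-fold it held for 117 of the 271 more positive under the JeKo-1 label (43.2%) and for 36 of the 202 in Granta-519 (17.8%). FCRL5 shows it: its log2 rise was larger under the JeKo-1 label, from 3.62, 2.70 and 2.48 to 37.7, 41.7 and 38.7 CPM, while in Granta-519 it went from 209, 213 and 218 to 468, 472 and 463 CPM.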

How the data were processed

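Gene counts for 12 polyA libraries were deposited by the authors as raw whole-number counts per gene symbol; STAR and hg19 are named in the submitters' processing notes, and which tool and annotation gave the counts was not stated. A second deposited table holds length-scaled values, used as a score in 1 alternative because it is named for TPM but its columns do not sum as TPM do. All 26364 rows were read; 4719 had no count, and 28 names turned into dates (0.26% of counts) were never named. Strand use in counting is not known, so overlapping and near-identical genes (HLA, HSPA1A, ribosomal proteins) are uncertain.

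Groups came from the labels. edgeR 4.0.16 (R 4.3.3) fitted 4 group means by robust quasi-likelihood after filterByExpr and TMM, with 8 residual degrees of freedom. Calls took an adjusted p under 0.05 over 15087 genes, and glmTreat tested beyond 2-fold. Log2 changes kept the default prior count of edgeR, and a prior count of 2 entered only log2 CPM, as in the starting gaps. Standard errors are the log2 change over the root of F. Scripts were tested on simulated data. The alternatives used DESeq2 1.42.0 and limma 3.58.1 (score pseudocount 0.01). Library pairs within a group differed by 1.62 to 5.39 in chi-square per gene, so none was a duplicate, and the highest values involved JeKo-1 label vehicle replicate 2.

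Named genes were the 6 largest differences in each direction with 10 or more counts in every vehicle library, 4 among the other genes, 3 with opposite changes, 4 alike, a set of lymphoma genes, and the called extremes of each of 37 lists. The rule for alike rises named CHRNA1, RGS8, MYBPC1 and CLEC4M, which were near 0 in vehicle, so their intervals are unreliable. Some genes this rule names are not reported here. The members and lists were chosen with earlier results of these data known.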

Additional observations from a re-analysis of the deposited data

Results flagged for a closer look

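The response to chidamide differed between the lines by a test of the difference itself for 5956 genes. Each gene named in the text that passed this test is given here with its difference in log2 response, JeKo-1 label minus Granta-519 (edgeR adjusted p under 0.05). Values of genes with few counts are fitted and no bounds.

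Of the genes with the largest differences, TLR7 had 3.58, FCMR 3.34, CXCL10 3.33, SAMD9L 3.04, NOTCH4 2.61 and FCRL5 2.59. Toward Granta-519, KCTD15 had -3.74, NUGGC -3.36, CXCR5 -3.28 and C10orf10 -2.89. Genes with few vehicle counts were RXFP1 with 9.49, FAM198B with 6.93, ITGBL1 with 6.92 and MOB3B with 6.85, and GNAO1 with -9.09, TMEM59L with -9.03, RASD2 with -8.00 and PDZD4 with -7.54. Genes with opposite changes were SECISBP2L with 1.93, KIF26B with 1.70, MXD1 with 1.66, HIC1 with -2.69 and CECR6 with -2.23.

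Lymphoma genes were CCND1 with 3.11, from 5 counts in vehicle under the JeKo-1 label, CDKN1A with 0.72, BCL2 with 0.55, MYC with -1.24 and BCL6 with -2.10. Survival genes were BCL2L2 with 0.97 and MCL1 with 0.14, and the death-promoting HRK had -2.91 and BIK -0.94. Chromatin genes were HDAC9 with 1.85, HDAC7 with -1.27, HDAC10 with -0.37, EZH2 with 0.22, SIN3A with 0.69 and MTA3 with -0.71.

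B-cell genes were PTPN6 with 1.1, ID2 with 0.92, FOXO1 with -2.21 and MME with -3.35. Antigen presentation genes were PSMB8 with 0.65, HLA-DRB5 with 0.47, TAP2 with -0.40 and HLA-DMB with -0.67. Immune surface genes were CD274, the checkpoint ligand PD-L1, with 1.77, ICAM1 with 0.86 and CD86 with -0.90.

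Genes named beside these were PARP14 with 3.34, TNF with 1.66, CD83 with 1.03, VIM with 0.43, NCL with -0.76, PLCG2 with -0.96, ISG20 with -1.1, FSCN1 with -1.26, IL3RA with -1.51 and OAS3 with -1.69. They were chosen as examples after their values were seen.

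Signalling genes were NR4A2 with 6.61 (0 vehicle counts under the JeKo-1 label), ATF3 with 2.12, IER3 with 1.95, FOSL2 with -3.18 and IL10 with -1.66. Interferon and cytokine genes were IL15 with 5.45, HERC6 with 3.64, OAS1 with -2.73 and CCL17 with -1.92. Kruppel-like factors were KLF3 with 0.66 and KLF9 with -4.40 (4 then 0 counts under the JeKo-1 label), and TXNIP, often raised by HDAC inhibitors, had 0.80. Cell-cycle genes were CDKN1B with 0.93, SPC25 with 0.71, GINS4 with 0.50, CDKN3 with 0.26, MAD2L1 with -0.39, MCM4 with -0.76 and CDK6 with -1.37.

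Metabolic genes were SLC2A3, a glucose transporter, with 3.05, FADS2 with 1.83, SDHC with 0.65, HK2 with 0.60, ATP5J with -0.20, MVD with -0.80, SLC7A5 with -1.21 and ENO2 with -2.0. Stress and lysosome genes were TP53I3 with 1.70, BAG3 with 1.18, RRM2B with -0.78, CTSB with -1.16 and HSPA1A with -1.73, and TERT had -1.44. Ribosomal protein genes were RPL10 with 0.13 and RPS7 with -0.28. Markers of other cell types or neurons were DPYSL3 with 6.73, ITGAM with 1.61, ACTA2 with 1.25, FN1 with -0.74, CD247 with -2.48, ITGA2B with -3.02, CD5 with -3.12 and CPLX1 with -5.55. Under the JeKo-1 label DPYSL3 had 0 vehicle counts and CPLX1 had 5 then 0.

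Some of these calls depended on 1 library or on the processing. Without JeKo-1 label vehicle replicate 2 the edgeR adjusted p was 0.27 for CD5, 0.482 for ITGA2B and 0.142 for RPL10, and without vehicle replicate 3 of that label it was 0.205 for CPLX1 and 1 for KLF9. CDKN3 was lost without Granta-519 chidamide replicate 1 (0.0717), ATP5J without JeKo-1 label chidamide replicate 3 (0.056) or Granta-519 vehicle replicate 2 (0.0521), and FN1 without any of 7 libraries (0.0516 to 0.0957). KLF9 was also lost without any chidamide library labelled JeKo-1 (0.0724 to 0.0835), ITGA2B without any of 6 further libraries (0.05 to 0.102) and RPL10 without any of 8 further libraries (0.073 to 0.14). RPL10 was also lost with RLE scaling (0.0581) and DESeq2 (0.0701), ITGA2B with DESeq2 (0.0634), and RPS7 with no count filter (0.0838). FN1 was lost with library totals (0.0778), no count filter (0.12) and DESeq2 (0.0509). ATP5J was lost with upper-quartile scaling (0.0746), library totals (0.468), no count filter (0.823) and limma on the score (0.385).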

How the results depend on the processing

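With no count filter 4669 genes were more positive under the JeKo-1 label and 1733 in Granta-519, and with library totals alone 1918 in Granta-519. Beyond 2-fold, 207 genes were called with 10 or more counts required in every vehicle library (80 and 127 by direction) and 236 with DESeq2 (127 and 109); limma on the score called 177 toward the JeKo-1 label. With 1 library left out, calls ran from 5504 to 5867 (2718 to 2880 toward the JeKo-1 label, 2736 to 2987 toward Granta-519), calls beyond 2-fold from 404 to 447 (223 to 260, and 167 to 191), opposite calls from 700 to 797, alike genes from 6175 to 6403, and calls within a line from 9560 to 10145 and from 10180 to 11135; without JeKo-1 label vehicle replicate 2 the total was 5867. The starting-gap relation had Pearson r of -0.466 from vehicle replicate 2, -0.487 with all vehicle libraries on both sides and -0.423 with 50 or more counts, and rho of -0.355 (replicate 2), -0.358 (replicate 3), -0.385 (all) and -0.324 (50 counts). The median at a gap of -3 or less was 1.04 (replicate 3), 1.03 (all), 1.02 (50 counts) and 1.24 (library totals), and at 3 or more -1.46 (replicate 2), -1.44 (replicate 3), -1.45 (all) and -1.32 (library totals). Leaving out a chidamide library, an alternative chosen after seeing the data, gave r from -0.455 to -0.451, rho from -0.347 to -0.345, and medians from 1.09 to 1.16 and from -1.42 to -1.38. The cause of these shifts was not tested. CHRNA1, with 0 and 1 vehicle counts, reversed to -1.38 with limma on the score.

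Same-numbered libraries of a line did not pair (correlations of deviations over 0.1 in 1 of 6 pairs), and a replicate block gave 6092 calls. Of the named genes, 64 lost calls and 14 new calls were counted over all settings, beside 2050 results that kept direction and call. Alike genes numbered 6375 with errors from the fitted means, also added after seeing the data.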

Other observations

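Several groups not described above held differences in both directions. Over all tested genes, 20.0% were called toward the JeKo-1 label and 19.5% toward Granta-519. With 10 or more counts in every vehicle library, 47.5% were called in either direction. Mitosis genes had 17 of 39 more positive under the JeKo-1 label and 6 in Granta-519 (median 0.10), with 36 inside 1.5-fold, and 25 and 2 with library totals. MHC class I genes had 8 of 16 toward the JeKo-1 label and 3 toward Granta-519 (median 0.15), and 12 and 2 with library totals. Genes of cholesterol and fatty acid synthesis had 12 of 29 toward Granta-519 and 6 the other way, but 8 and 11 with library totals. Glycolysis genes had 10 of 24 and 4, but 6 and 8 with library totals, and heat shock proteins had 8 of 17 and 2, but 4 and 7. CD274, the checkpoint ligand PD-L1, rose by 2.64 under the JeKo-1 label and by 0.87 in Granta-519. SLC2A3, a glucose transporter, rose by 2.96 under the JeKo-1 label, with -0.09 in Granta-519, while ENO2, a neuronal enolase, had 0.17 and a rise of 2.16.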
